A study of Schmidtea mediterranea with 24 samples.

Results

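Tail fragments of Schmidtea mediterranea in which egr-2 had been targeted by RNA interference (RNAi) were compared with control RNAi fragments at 0 h, that is at amputation and before any regeneration. Schmidtea mediterranea is a freshwater flatworm, a planarian, that regrows missing body parts. The comparison rests on the 8 libraries labelled 0 h among the 24 of the series, 4 of egr-2 RNAi and 4 of control RNAi by their labels. The tested transcripts were the 17429 of 28069 contig IDs that passed a filter on low counts in these 8 libraries. The other libraries, 8 at 2 days and 8 at 4 days after amputation, were used only where stated.

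The animals of both groups were asexual planarians of the clonal line CIW4, whose ages are not given in the labels. They had received 6 feedings of double-stranded RNA, against egr-2 in the egr-2 RNAi group and against egfp, a gene that planarians lack, in the control RNAi group. The labels call the replicates biological, and each pooled the anterior part of 10 tail fragments, so a value is an average over animals and over all tissues of that piece. In such bulk RNA, fewer cells of a type and less RNA per cell cannot be told apart. The tables name transcripts only by contig ID, without gene names. Hence the level of egr-2 itself, the strength of the knockdown and the markers of the labelled tissue were not analysed here, and the IDs that fell could include the targeted transcript.

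Early growth response genes such as egr-2 encode zinc finger transcription factors, which bind DNA and switch other genes on or off. The family is known for immediate early genes, which respond quickly to growth signals and to injury. In planarians, missing tissue is rebuilt by neoblasts, the dividing stem cells of the adult body, after a wound response. RNAi by feeding destroys the matching messenger RNA throughout the animal. At 0 h the fragments had only just been cut, so the comparison addresses which transcripts differ in tissue that has yet to regenerate.

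Total counts ran from 18829638 to 26924688 in egr-2 RNAi libraries and from 13449251 to 24500726 in control RNAi libraries, and the tested IDs held 99.85% to 99.90% of them. Replicate 1 of egr-2 RNAi stood apart from the other libraries. On the first principal component of log2 CPM (counts scaled to a common library total), which held 45.5% of the variance, it scored 68.6, while each of the other 7 libraries scored between -18.0 and 6.08. The second component held 14.9% of the variance. On it, egr-2 RNAi replicates 2, 3 and 4 scored 14.5, 15.4 and 20.5 and replicate 1 scored -8.96, against -27.3 to 2.37 in control RNAi. The common biological coefficient of variation, the relative spread between replicates, was 0.11 over the 8 libraries and 0.0827 without egr-2 RNAi replicate 1. It was 0.0620 in the 8 libraries at 2 days and 0.0661 in those at 4 days. The results at 0 h are therefore given with and without that replicate.

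Far more transcripts were called higher than lower in egr-2 RNAi fragments at 0 h, and most of the called differences were small. Over all tested IDs, called or not, 50.6% had a positive log2 fold change, and the median was 0.0027. The edgeR quasi-likelihood test called 189 of 17429 IDs (1.08%) at a Benjamini-Hochberg adjusted p below 0.05. Of these, 168 were higher (0.964% of the tested IDs) and 21 were lower (0.12%). The median log2 fold change was 0.47 in size among the higher IDs (quartiles 0.35 and 0.65) and 0.45 among the lower ones (0.40 and 0.73), against 0.13 over all tested IDs. A difference of at least 2-fold was found for 17 of the 168 and 5 of the 21, whereas 114 and 13 differed by less than 1.5-fold. The CPM of the 2 groups did not overlap for 1769 tested IDs (10.1%), 1127 with egr-2 RNAi above (6.47%) and 642 with it below (3.68%). All 189 called IDs were among them.

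**Figure D1:**
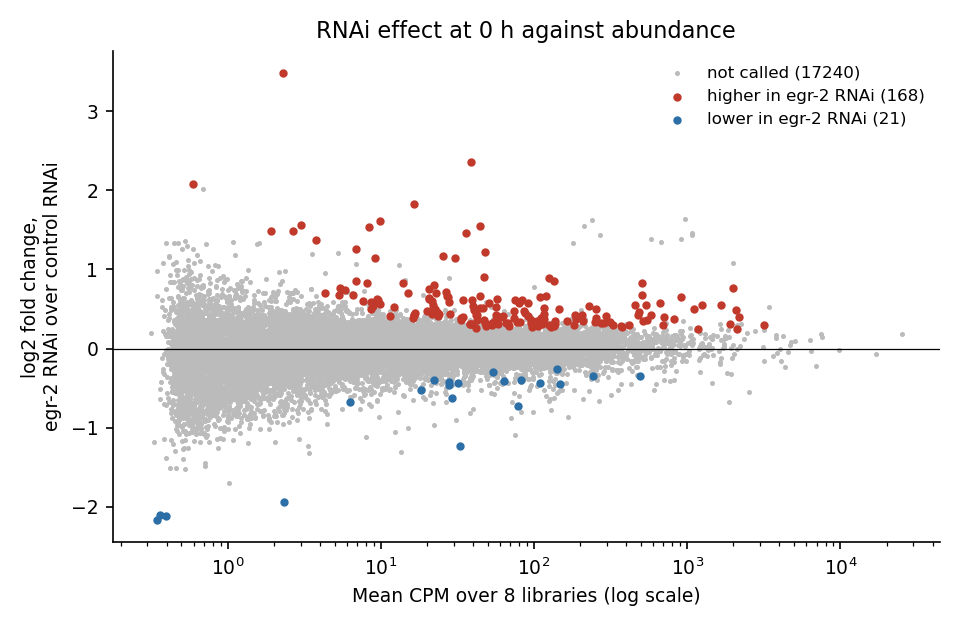
RNAi effect at 0 h for each of the 17429 tested contig IDs, as the log2 fold change of egr-2 RNAi over control RNAi against mean CPM over the 8 libraries on a log scale. The 168 called IDs above 0 outnumber the 21 below it. Most of the 168 lie between 10 and 1000 CPM, with 83 from 10 to 100 CPM and 51 from 100 to 1000 CPM, and 1 lies under 1 CPM.

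The higher IDs made up a larger share of the counts than of the tested IDs. The 168 higher IDs held 4.39%, 4.19%, 4.10% and 4.54% of all counts in the 4 egr-2 RNAi libraries, against 3.15%, 3.44%, 3.13% and 3.32% in the 4 control RNAi libraries. The 21 lower IDs held 0.133% to 0.139% of the counts in egr-2 RNAi and 0.177% to 0.195% in control RNAi libraries. As the IDs were chosen for differing in these libraries, the gap describes its size and adds no test.

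Calls were more frequent among abundant transcripts, whose fold changes also had smaller errors. Among the 115 most abundant tested IDs, from 1000 CPM upward, 10 rose (8.70%) and 0 fell. From 100 to 1000 CPM, 51 of 1666 were higher (3.06%) and 5 were lower (0.30%). From 10 to 100 CPM these numbers were 83 and 11 of 7684, and from 1 to 10 CPM they were 23 and 2 of 5853. Among 2111 IDs under 1 CPM, 1 was higher and 3 were lower. The median standard error of the log2 fold change was 0.061 in the most abundant class and 0.38 in the least abundant one. Over all tested IDs of a class, called or not, the median log2 fold change was 0.053 from 1000 CPM upward and -0.12 under 1 CPM.

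Without egr-2 RNAi replicate 1, all 189 calls were made again and 258 were added. The test then called 447 of 18034 IDs (2.48%), 312 higher (1.73%) and 135 lower (0.749%). The share of higher IDs was 69.8% without that replicate and 88.9% with it. Of the added IDs, 144 were higher and 114 lower. In the left-out replicate, the median log2 ratio to the control mean was 0.30 for those 144 IDs, against 0.30 to 0.38 in its 3 mates. For the 114 lower IDs it was -0.19, against -0.49 to -0.39 in its mates, and 50 of the 114 lay within the control range. The fits differ in the IDs they test, because a group of 3 libraries admits more IDs. On the same 17429 IDs the fit without the replicate called 433.

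The count of calls was lower when any other library was left out, as the plot of calls by fit shows. Such fits also rest on fewer libraries, and how much of the fall comes from that alone was not tested. The count fell to 114, 136 and 50 when egr-2 RNAi replicates 2, 3 and 4 were left out in turn. Leaving out control RNAi replicates 1, 2, 3 and 4 in turn gave 54, 89, 33 and 82 calls. A set of 31 IDs was called in the fit of all 8 libraries and in each of the 8 fits with 1 library left out, 29 of them higher and 2 lower. Their median log2 fold change was 0.65 in size, from 0.42 to 1.94, at a median of 75.5 CPM. A model over all 24 libraries, in which the later time points with their smaller spread enter the estimate, called 1124 of 19761 IDs (5.69%; 4.25% higher and 1.44% lower), and 186 of the 189 were among them. In the authors' deposited table, which lists 16812 IDs, 1425 had a false discovery rate below 0.05 at 0 h, 912 higher and 513 lower. That table held 186 of the 189 IDs, gave 183 of them a false discovery rate below 0.05 and gave 0 of them the opposite sign. Its 0 h comparison is of the same libraries in which the 189 were called, so the match is no independent check.

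**Figure D2:**
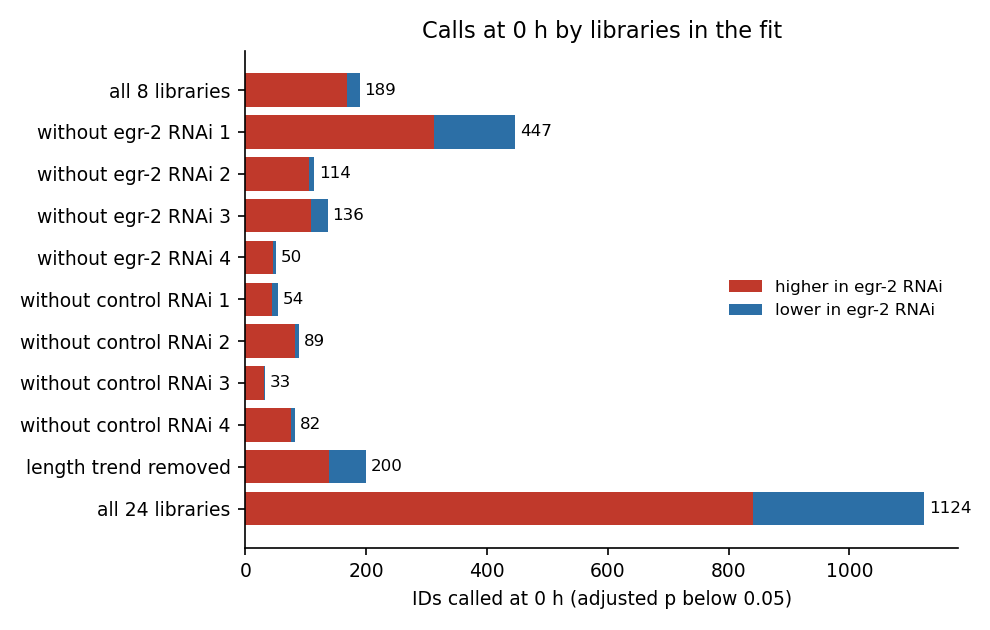
Number of contig IDs called at 0 h (horizontal axis, adjusted p below 0.05) by the libraries or correction used in the fit, split into IDs higher and lower in egr-2 RNAi. The count runs from 33 without control RNAi replicate 3 to 1124 with all 24 libraries in the model, and higher IDs outnumber lower ones in each fit shown.

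Contig length moved with the effect among the higher IDs. The median length was 894.5 bases among the 168 higher IDs and 1927 bases among the 21 lower ones, against 1298 bases over all tested IDs. Higher IDs made up 2.03% of the tested contigs under 500 bases, 1.38% of those from 500 to under 1000 bases and 0.938% of those from 1000 to under 2000 bases. They made up 0.228% of those from 2000 to under 4000 bases and 0.129% of those of 4000 bases or more. The few lower IDs followed no such order, with 4 of 1429, 2 of 4567, 7 of 7145, 6 of 3512 and 2 of 776 tested contigs from the shortest to the longest class. Without egr-2 RNAi replicate 1 the median lengths were 1068.5 bases among the higher IDs and 1321 bases among the lower ones. Long contigs had the higher CPM in these libraries, with a median of 60.1 CPM in the longest class and 2.16 CPM in the shortest. CPM are not divided by contig length, so this order does not show that long transcripts are more abundant.

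The length pattern came mainly from 2 libraries of egr-2 RNAi. Contigs of 4000 bases or more had a median log2 ratio to the control mean of -0.43, -0.0056, 0.011 and -0.22 in egr-2 RNAi replicates 1, 2, 3 and 4, against -0.015 to 0.028 in the control RNAi libraries. For contigs from 500 to under 1000 bases it was 0.18, 0.0059, 0.0035 and 0.089 in the same egr-2 RNAi replicates, against -0.015 to 0.014 in control RNAi. Thus replicates 1 and 4 held less RNA of long contigs and more of short ones, while replicates 2 and 3 lay within the control range in both classes. Under 500 bases, replicates 2 and 3 had 0.030 and 0.023, above the control range of -0.011 to 0.013. From 2000 to under 4000 bases, replicate 3 had 0.010, above the highest control value of 0.0056. Across the 9507 IDs whose average log2 CPM in the edgeR fit corresponded to at least 10 CPM, log2 fold change and length had a Spearman's rho of -0.52 in the fit of the 8 libraries and -0.32 in that without replicate 1. Within each fit all IDs share the same libraries, so rho is a description.

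When a smooth trend on length was removed from each library, 200 IDs were called, 138 higher and 62 lower, a share of 69.0% higher. Of the 168 higher IDs 118 remained called, as did 19 of the 21 lower ones. The order of the median lengths turned round, with 1299.5 bases among the higher IDs and 1053.5 bases among the lower ones. With the trend removed and replicate 1 left out, 475 were called, 279 higher and 196 lower. With total counts in place of TMM factors as the scale, 115 IDs were called, of which 76.5% were higher. The surplus of higher IDs was thus smaller with either correction and its direction did not change. Leaving out both replicates 1 and 4 of egr-2 RNAi gave 273 calls, 189 higher and 84 lower, and 154 of the 189 remained. What else sets replicates 1 and 4 apart was not tested.

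**Figure D3:**
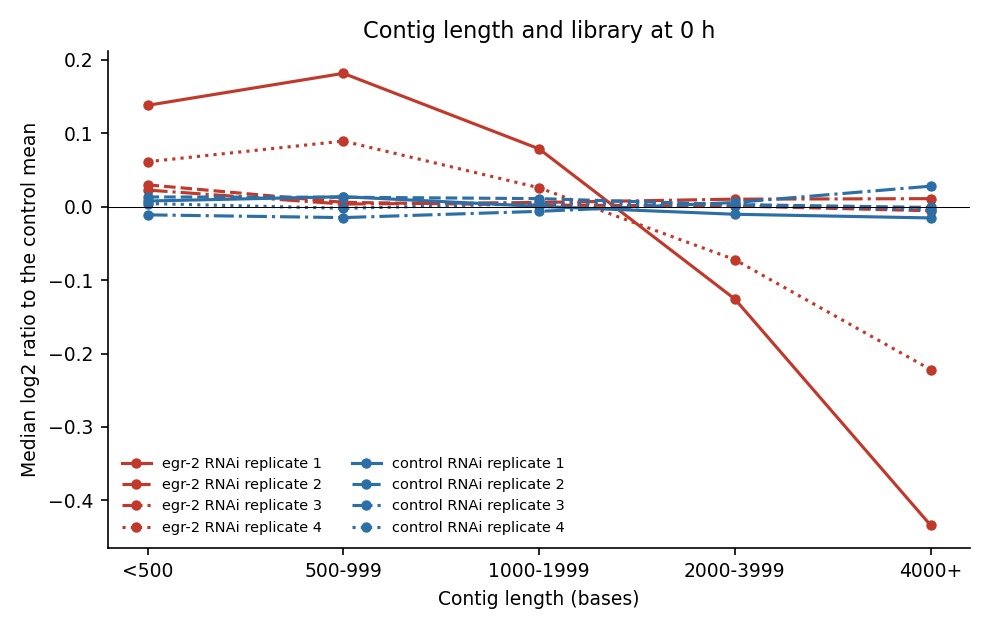
Median log2 ratio of each 0 h library to the mean of the control RNAi libraries (vertical axis) for tested contigs of 5 length classes in bases (horizontal axis), with 1 line for each library. Replicate 1 of egr-2 RNAi runs down to -0.43 and replicate 4 to -0.22 in the longest class, while the other 6 lines stay within 0.030 of 0.

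Among 185 IDs that were called with and without replicate 1, had at least 1 CPM and did not overlap between the groups, 167 were higher and 18 lower. From each direction the 2 IDs with the greatest fold change are described here in every library. By this choice the groups of each described ID are separate at 0 h, which adds no test. The tables give none of them a name or function.

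The largest rise was that of dd_Smed_v6_570_0_1, a contig of 431 bases. It had 1.07, 3.79, 4.10 and 8.01 CPM in egr-2 RNAi libraries 1 to 4, from 20, 77, 98 and 215 counts, against 0.145, 0.520, 0.423 and 0.363 CPM in control RNAi libraries 1 to 4, from 2, 11, 10 and 9 counts. The groups did not overlap, and the egr-2 RNAi replicate that stood apart had the lowest value of its group. Mean levels were 4.24 ± 2.86 CPM in egr-2 RNAi and 0.363 ± 0.159 CPM in control RNAi (SD, n = 4 each), a log2 fold change of 3.48 (SE 0.55, edgeR adjusted p of 0.012). Without egr-2 RNAi replicate 1 the log2 fold change was 3.79 (adjusted p of 1.4e-05). The edgeR call was lost without control RNAi replicate 1 (adjusted p of 0.054) and without control RNAi replicate 3 (0.065).

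Its later levels, scaled over all 24 libraries, had higher means than at 0 h in both conditions. At 2 days dd_Smed_v6_570_0_1 had 106 ± 32.8 CPM in egr-2 RNAi and 65.9 ± 21.9 CPM in control RNAi, and at 4 days it had 33.7 ± 11.8 CPM in egr-2 RNAi and 3.83 ± 2.86 CPM in control RNAi (SD, n = 4 each). On the same scale it had 4.85 ± 3.26 CPM in egr-2 RNAi and 0.410 ± 0.180 CPM in control RNAi at 0 h (SD, n = 4 each). In edgeR fits of each later time point alone, its log2 fold change under egr-2 RNAi was 0.68 at 2 days (SE 0.21, adjusted p of 0.12) and 3.12 at 4 days (SE 0.31, adjusted p of 1.8e-05). The effect at 0 h minus that at 2 days was 2.84 (SE 0.78, edgeR adjusted p = 0.32), and minus that at 4 days it was 0.40 (SE 0.93, adjusted p = 0.89).

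The other rise was that of dd_Smed_v6_2394_0_1, a contig of 1771 bases, with 39.7, 66.8, 57.8 and 95.2 CPM in egr-2 RNAi libraries 1 to 4. In control RNAi libraries 1 to 4 it had 5.38, 17.3, 3.81 and 22.8 CPM, so control RNAi replicates 2 and 4 lay well above replicates 1 and 3. The highest control library was still below the lowest egr-2 RNAi library. The log2 fold change was 2.37 (SE 0.43, edgeR adjusted p of 0.025), and without egr-2 RNAi replicate 1 it was 2.53 (adjusted p of 8.4e-04). The edgeR call was lost without control RNAi replicates 1, 2 and 3, with adjusted p of 0.089, 0.058 and 0.065. It was also lost without egr-2 RNAi replicates 2 and 4, with adjusted p of 0.056 and 0.11.

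Levels of dd_Smed_v6_2394_0_1, scaled over all 24 libraries, were also read after amputation. They were 16 ± 1.52 CPM in egr-2 RNAi and 11.8 ± 1.20 CPM in control RNAi at 2 days, and 2.62 ± 0.792 CPM in egr-2 RNAi and 1.10 ± 0.314 CPM in control RNAi at 4 days (SD, n = 4 each). On that scale the 0 h levels were 74.3 ± 26.0 CPM in egr-2 RNAi and 13.9 ± 10.4 CPM in control RNAi (SD, n = 4 each). The edgeR fits of each later time point alone gave it log2 fold changes of 0.44 at 2 days (SE 0.091, edgeR adjusted p of 0.020) and 1.25 at 4 days (SE 0.23, adjusted p of 0.0035). The effect at 0 h minus the later effect was 1.92 for 2 days (SE 0.49, edgeR adjusted p = 0.24) and 1.13 for 4 days (SE 0.71, adjusted p = 0.56).

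The largest fall with at least 1 CPM was that of dd_Smed_v6_9273_0_1, a contig of 1670 bases. Its egr-2 RNAi libraries 1 to 4 had 0.697, 1.03, 0.836 and 1.19 CPM, against 5.67, 2.83, 3.01 and 3.43 CPM in control RNAi libraries 1 to 4. Control RNAi replicate 1 was the highest, and the groups were separate without it as well. The log2 fold change was -1.94 (SE 0.27, edgeR adjusted p of 0.0071), and -1.82 without egr-2 RNAi replicate 1 (adjusted p of 0.0015). Of the 4 named IDs, it alone was called in each of the 8 fits with 1 library left out, with adjusted p of 0.0015 to 0.025. In the fits of each later time point alone its log2 fold change was -1.64 at 2 days (SE 0.12, edgeR adjusted p of 8.6e-07) and -1.67 at 4 days (SE 0.077, adjusted p of 7.0e-10). The effect at 0 h minus these was -0.26 (SE 0.32, edgeR adjusted p = 0.91) and -0.21 (SE 0.26, adjusted p = 0.78). Its levels scaled over all 24 libraries were 19.0 ± 2.73 CPM in egr-2 RNAi and 59.4 ± 11.2 CPM in control RNAi at 2 days, and 14.1 ± 1.96 CPM in egr-2 RNAi and 45.4 ± 2.63 CPM in control RNAi at 4 days (SD, n = 4 each). On that scale it had 1.08 ± 0.240 CPM in egr-2 RNAi and 4.21 ± 1.47 CPM in control RNAi at 0 h (SD, n = 4 each).

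The next fall was that of dd_Smed_v6_4205_0_1, a contig of 278 bases with 14.4, 23.3, 27.7 and 13.5 CPM in egr-2 RNAi libraries 1 to 4. Its control RNAi libraries 1 to 4 had 29.1, 41.7, 54.4 and 58.8 CPM. The groups did not overlap, but the highest egr-2 RNAi library lay just under the lowest control library. The log2 fold change was -1.23 (SE 0.24, edgeR adjusted p of 0.035), and -1.12 without egr-2 RNAi replicate 1 (adjusted p of 0.0094). The edgeR call was lost without control RNAi replicates 2, 3 and 4, with adjusted p of 0.071, 0.16 and 0.10. The same held without egr-2 RNAi replicate 2 (adjusted p of 0.058) and replicate 4 (0.12).

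After amputation dd_Smed_v6_4205_0_1 was near 0 in both conditions. Scaled over all 24 libraries, it had 0.136 ± 0.175 CPM in egr-2 RNAi and 0.585 ± 0.553 CPM in control RNAi at 2 days, against 22.6 ± 7.70 CPM in egr-2 RNAi and 52.0 ± 15.3 CPM in control RNAi at 0 h (SD, n = 4 each). It did not pass the filter on low counts at 2 days. At 4 days it had 0.722 ± 0.253 CPM in egr-2 RNAi and 1.12 ± 0.468 CPM in control RNAi (SD, n = 4 each), a log2 fold change of -0.65 (SE 0.33, edgeR adjusted p of 0.38).

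**Figure D4:**
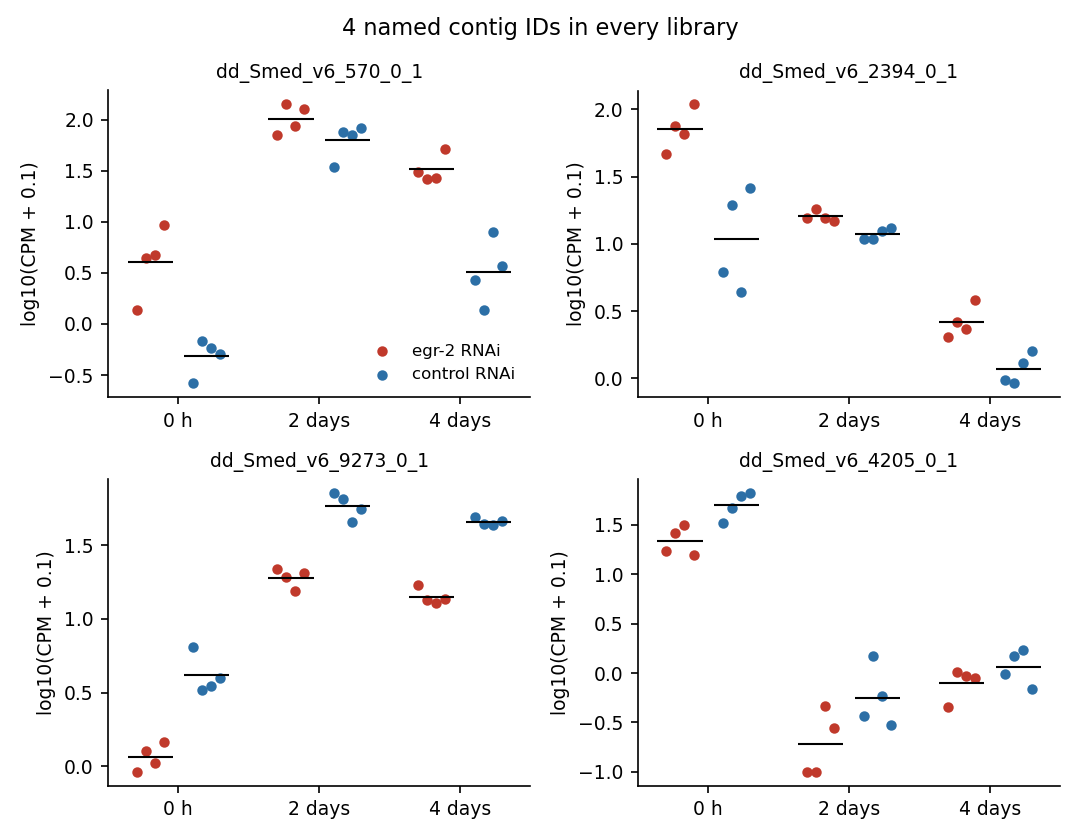
Levels of the 4 named contig IDs in each of the 24 libraries, as log10 of CPM plus 0.1 with CPM scaled over all libraries, by time after amputation and RNAi condition (points are libraries, bars are means of the plotted values). At 0 h the egr-2 RNAi points lie above the control RNAi points for dd_Smed_v6_570_0_1 and dd_Smed_v6_2394_0_1, and below them for dd_Smed_v6_9273_0_1 and dd_Smed_v6_4205_0_1.

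The IDs called at 0 h were then looked up in the libraries of 2 and 4 days, which share no library with the 0 h comparison. Of the 189 IDs, 187 were tested at 2 days, and 159 of these (85.0%) had the same sign of effect, against 62.9% of 17001 IDs tested at both times. The fit of the 8 libraries at 2 days called 51 of the 187 (27.3%), each in the same direction as at 0 h, where 1.75% of all IDs tested at 2 days were called (0.851% higher and 0.896% lower). Over all 17001 IDs tested at both times, 309 were called at 2 days, and 289 of these had the same sign at 0 h. At 4 days, 149 of 187 (79.7%) had the same sign, against 55.4% of 17268 IDs. The fit of the 8 libraries at 4 days called 63 of the 187 (33.7%), again each in the same direction, where 4.14% of all tested IDs were called (2.61% higher and 1.53% lower). Over all 17268 IDs tested at both times, 776 were called at 4 days, and 633 of these had the same sign at 0 h. Of the 189, 23 were called at both later times, 21 higher and 2 lower, and 98 were called at neither. Calls at 0 h were more frequent among abundant IDs, and the shares over all IDs given here were not matched for abundance.

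By direction, at 2 days 46 of 168 higher IDs and 5 of 19 lower IDs were called, and at 4 days 59 of 167 and 4 of 20. Of the 31 IDs called in each fit with 1 library left out, 12 of 31 were called at 2 days and 10 of 30 at 4 days. The 258 IDs called at 0 h only without egr-2 RNAi replicate 1 can be read in the same way. Of 254 tested, 34 (13.4%) were called at 2 days, 33 in the same direction, and 71 (28.0%) at 4 days, 69 in the same direction.

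The effects were smaller at the later times for most of the 0 h calls, as the plot of later effects shows. The absolute log2 fold change was below that at 0 h for 171 of 187 IDs at 2 days and for 165 of 187 at 4 days. Since the IDs were chosen for a large effect at 0 h, a smaller value elsewhere follows in part from that choice, and over all tested IDs 62.2% and 62.1% had the smaller value at 2 and 4 days. The median log2 fold change of the 168 higher IDs was 0.47 at 0 h, 0.18 at 2 days and 0.16 at 4 days. For the lower IDs that were tested, the median was -0.15 at 2 days and -0.17 at 4 days, against -0.45 for all 21 at 0 h.

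**Figure D5:**
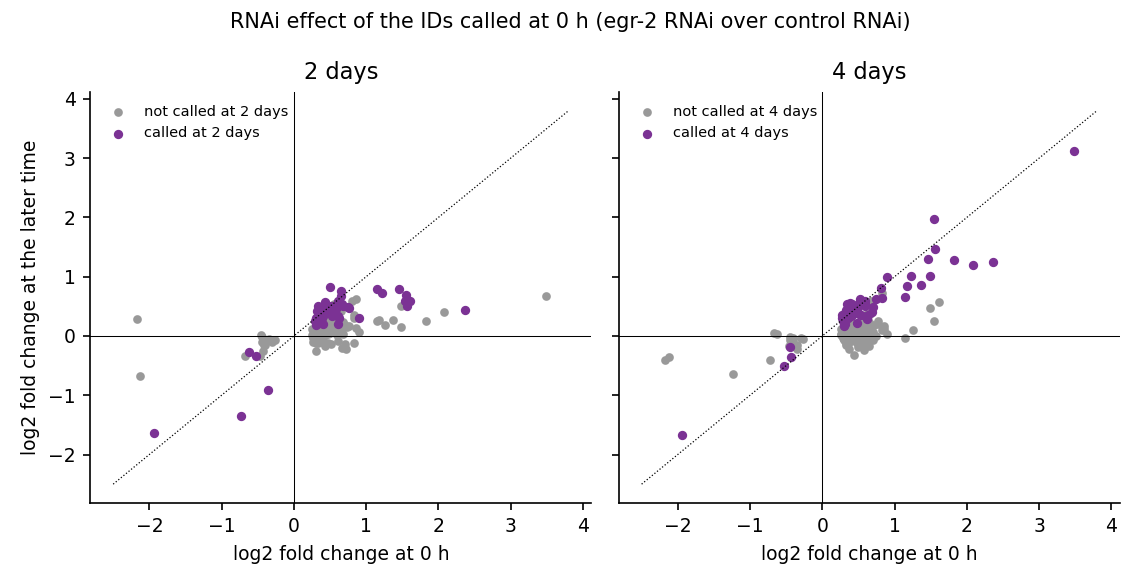
RNAi effect (log2 fold change of egr-2 RNAi over control RNAi) of the IDs called at 0 h, with the effect at 0 h on the horizontal axis and the effect at 2 days (left) or 4 days (right) on the vertical axis. The dotted line marks equal effects, and most points lie nearer to 0 on the vertical axis, with 51 IDs called at 2 days and 63 at 4 days.

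Scaled over all 24 libraries, the median level of the 168 higher IDs was 76.7 CPM in egr-2 RNAi and 54.0 CPM in control RNAi at 0 h. It was 46.9 CPM in egr-2 RNAi and 40.2 CPM in control RNAi at 2 days, and 39.9 CPM in egr-2 RNAi and 37.3 CPM in control RNAi at 4 days. The 21 lower IDs had medians of 27.3 CPM in egr-2 RNAi and 41.5 CPM in control RNAi at 0 h. Their medians were 33.7 CPM in egr-2 RNAi and 42.3 CPM in control RNAi at 2 days, and 34.4 CPM in egr-2 RNAi and 43.8 CPM in control RNAi at 4 days.

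Whether the RNAi effect at 0 h itself differed from that at a later time was tested as an interaction over the 16 libraries of each pair of times. The edgeR quasi-likelihood test called 12 of 18661 IDs (0.0643%) for 0 h minus 2 days, 10 with the higher effect at 0 h (0.0536%) and 2 with the lower one (0.0107%). Of the 12, 10 were among the 189 called at 0 h, which rest on the same 0 h libraries, and the median absolute difference of the log2 effects was 0.86. Leaving out egr-2 RNAi replicate 1 or 4 of 0 h gave 38 or 4 calls, and leaving out control RNAi replicate 1 of 0 h gave 6. Leaving out egr-2 RNAi replicate 1 or 2 of 2 days gave 6 or 3 calls, and leaving out control RNAi replicate 2, 3 or 4 of 2 days gave 3, 5 or 3.

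For 0 h minus 4 days, 36 of 19537 IDs (0.184%) were called, 29 with the higher effect at 0 h (0.148%) and 7 with the lower one (0.0358%), and 23 of the 36 were among the 189. The separate fits gave effects of opposite sign at 0 h and 4 days for 29 of the 36. As these IDs were chosen for differing between the 2 times in the same libraries, opposite signs follow in part from that choice. Over the 17268 IDs tested at both times, 55.4% had the same sign. Total count scaling gave 34 calls, of which 55.9% had the higher effect at 0 h, against 80.6% with TMM factors. Leaving out egr-2 RNAi replicate 1 or 4 of 0 h gave 66 or 15 calls, and leaving out control RNAi replicate 1, 3 or 4 of 0 h gave 8, 10 or 21. Leaving out egr-2 RNAi replicate 2, 3 or 4 of 4 days gave 19, 10 or 8 calls, and leaving out control RNAi replicate 2 or 4 of 4 days gave 16 or 15. For the rest of the 189 IDs the interaction did not reach the threshold, which does not show that their effects were equal.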

How the data were processed

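The authors deposited raw counts of reads per contig for 28069 IDs in 24 libraries, and every column matched 1 sample description. The submitters' processing notes name FastQC 0.11.5, Bowtie2 2.3.1, featureCounts and Subread 1.6.3, and the design text adds BBDuk and edgeR. Neither the reference build nor strand use is given in the sources used here. A second table from the authors, also deposited, holds log2 fold changes, log2 CPM and false discovery rates (adjusted p-values), per the file headers.

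The 8 libraries at 0 h were fitted alone with edgeR 4.0.16 (limma 3.58.1, R 4.3.3): filterByExpr (minimum count 10, minimum total 15), TMM factors, group means, the quasi-likelihood test and Benjamini-Hochberg adjustment at 0.05. Standard errors came from the F statistic. Each interaction used 16 libraries. CPM are TMM-scaled, over the 8 libraries unless all 24 are named. Library ratios to the control mean used log2(CPM + 0.5), and principal components a prior count of 2. The length trend was a lowess (span 0.3) per library, added after seeing the data, as were the fits that combine it with leaving out a library, leave out egr-2 RNAi replicates 1 and 4 together, or keep the 8 library filter without replicate 1. Replicates of a group were compared by chi-square tests of their counts, and each pair differed by more than counting noise. The fit was tested on simulated data. DESeq2 1.42.0 and limma voom were alternatives. For tables without names the rule named the 2 largest rises and falls among IDs called with and without egr-2 RNAi replicate 1, with at least 1 CPM and no overlap. The comparison and the rules were chosen with earlier results of these data known. Of the 189 calls, 6 share a component number with another tested contig, against 286 of all 17429 tested IDs, and none of the 4 named IDs does. The counts of such contigs may be uncertain, which was not tested.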

Additional observations from a re-analysis of the deposited data

Results flagged for a closer look

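Values of 4 replicates were examined in 58 sets for a library far from its mates, and 4 such sets appeared. Chance alone marks about 1 set in 20. The SD of a library's deviations from its group mates on the log2 scale was 0.574 in egr-2 RNAi 0 h replicate 1, against 0.303 to 0.347 in the other 3. In control RNAi 0 h replicate 1, the library with the lowest total, it was 0.326, against 0.273 to 0.276 in the other 3. That control library also scored 22.5 on the third principal component, against -15.3 to -9.22 in its mates. The level of dd_Smed_v6_570_0_1 at 4 days was 51.2 CPM in egr-2 RNAi replicate 4, against 26.4 to 30.6 CPM in the other egr-2 RNAi libraries.

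By the edgeR interaction test, 12 IDs had another RNAi effect at 0 h than at 2 days, and 36 IDs had another one at 0 h than at 4 days.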

How the results depend on the processing

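The count of 189 IDs at 0 h was 115 with total count scaling, 465 with DESeq2, 454 with the edgeR likelihood ratio test, 337 with limma voom and sample quality weights, and 1124 with all 24 libraries. It ranged from 33 to 447 with 1 library left out. With egr-2 RNAi replicate 1 left out it was 433 on the IDs of the 8 library filter and 475 with the length trend removed. RLE factors (165), no filter (252), a filter of at least 1 CPM in 4 libraries (177) and the replicate block (142, with 115 of the 189) stayed within 1.5 times. Same-numbered libraries did not deviate together at 0 h, with correlations of -0.11 to 0.063. Weak correlations cannot show that the samples were unpaired, and the labels do not say whether the numbers mark a shared batch.

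The interaction count of 12 against 2 days was 19 with no filter, 57 with DESeq2, 36 with all 24 libraries, 16 with the replicate block and 3 to 38 with 1 library left out. That of 36 against 4 days was 146 with DESeq2, 56 with all 24 libraries, 67 with the replicate block and 8 to 66 with 1 library left out. The share of 0 h calls with the same sign at 2 days was 75.5% with the length trend removed and 81.2% to 93.9% with 1 library left out. At 4 days it was 83.2% with the length trend removed and 77.3% to 86.4% with 1 library left out. The share over all IDs was not read with the trend removed. The 4 named IDs kept their direction under each alternative in which they were read. They were not read in the fit without egr-2 RNAi replicate 1 on the IDs of the 8 library filter. DESeq2 gave no adjusted p for dd_Smed_v6_570_0_1 and dd_Smed_v6_9273_0_1, so their direction was not read there. The adjusted p ranged over the alternatives from 6.0e-08 to 0.065 for dd_Smed_v6_570_0_1, from 2.1e-05 to 0.11 for dd_Smed_v6_2394_0_1, from 1.2e-08 to 0.025 for dd_Smed_v6_9273_0_1 and from 1.8e-04 to 0.16 for dd_Smed_v6_4205_0_1. The causes of these changes were not tested.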

Other observations

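Limma's sample quality weights, estimated from the 8 libraries, were 0.286 and 0.812 for egr-2 RNAi replicates 1 and 4 and 1.10 to 1.53 for the other 6 libraries.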
